A study of Mus musculus with 16 samples.

Results

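Txnip, its arrestin relatives Arrdc4 and Arrdc3, and the glucose transporters Slc2a1 and Slc2a3 were followed across cell types and treatments. These 5 genes, of 32286 in the count tables, were taken by symbol from all 16 libraries. They were chosen by the measured rise of Txnip in stem and multipotent cells under IACS-70654, so the members' values for IACS-70654 in those cells are given as a description, without a test.

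Female BALB/c mice carried 2208L, a transplantable Trp53-null mammary tumor, and received either vehicle or IACS-70654, an orally given inhibitor of the bromodomains of CBP and P300, for 7 days in cycles of 3 days on and 2 days off. For the bone marrow mice the sources differ, giving 7 or 6 days. RNA of single cells was counted in 4 tumor libraries (vehicle, IACS-70654, anti-PD1, IACS-70654 and anti-PD1, with 1 library each), in 6 libraries of CD45+ bone marrow (BM) and in 6 of Lin- c-Kit+ BM. Each BM sort had 2 libraries from WT mice, which were labelled as controls, had no tumors and were untreated. It also had 2 from tumor-bearing mice on vehicle and 2 from tumor-bearing mice on IACS-70654. Each library pooled cells of 3 mice. IACS-70654 and WT mice therefore differed in tumor and drug together. Vehicle and WT mice differed in tumor, its implantation and dosing with vehicle together. Whether the 2 replicates of a group were separate pools is not stated. The p-values thus measure only the spread between these libraries, which may be technical.

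TXNIP, the thioredoxin-interacting protein, is an alpha-arrestin. It binds thioredoxin, which reduces oxidized proteins, and it draws glucose transporters from the cell surface, which lowers glucose uptake. Its gene is transcribed when glucose metabolites accumulate, through the factors MondoA (gene Mlxip) and ChREBP (gene Mlxipl) with their partner Mlx, which bind paired E-box motifs called carbohydrate response elements. Arrdc4 is a close relative under the same factors that also acts on glucose transporters. Arrdc3 is a relative known for the trafficking of adrenergic receptors. Slc2a1 encodes GLUT1, the widespread basal glucose transporter, and Slc2a3 encodes GLUT3, a high-affinity transporter of neurons and leukocytes. In hematopoietic stem cells Txnip is known for a role in quiescence and in the defense against oxidative stress.

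Txnip (ENSMUSG00000038393) lies on the plus strand at chr3:96557957-96561883 of mm10, and Arrdc4 (ENSMUSG00000042659) on the minus strand at chr7:68736995-68749241. Arrdc3 (ENSMUSG00000074794) is at chr13:80883384-80896042 and Slc2a1 (ENSMUSG00000028645) at chr4:119108711-119137983, both on the plus strand, and Slc2a3 (ENSMUSG00000003153) is at chr6:122727809-122801640 on the minus strand. Txnip overlaps an antisense gene, Gm15441, which had 312 UMIs against 19483 of Txnip in the named and unnamed classes of Lin- c-Kit+ BM. Arrdc3 shares its locus with 1700023H06Rik on the other strand, which had 1210 UMIs against 2838 of Arrdc3 in that sort. The strand setting of the counting is not given in the sources used here, so reads of such partners may not be separated.

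The promoters of Txnip and Arrdc4 are shown because these paralogs share a known mode of regulation. Whether it acts in these data was not tested. RefSeq (GRCm38.p6) entries were found for 4 of the 5 members, without one for Slc2a3. Each sequence is the 250 bases before the start of the gene in RefSeq, which for Arrdc4 lies 3 bases inside the start given above, read 5′ to 3′ on the gene's strand, at chr3:96557707-96557956 for Txnip and chr7:68749239-68749488 for Arrdc4. Capitals mark matches, on either strand, to CACGNG, a looser form of the E-box CACGTG, and to the CCAAT box, whose reverse complement is ATTGG.
Txnip: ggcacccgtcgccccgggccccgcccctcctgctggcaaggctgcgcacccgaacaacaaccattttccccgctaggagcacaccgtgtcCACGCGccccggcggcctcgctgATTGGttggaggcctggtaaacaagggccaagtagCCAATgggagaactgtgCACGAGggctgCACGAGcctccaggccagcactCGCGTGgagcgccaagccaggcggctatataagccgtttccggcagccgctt
Arrdc4: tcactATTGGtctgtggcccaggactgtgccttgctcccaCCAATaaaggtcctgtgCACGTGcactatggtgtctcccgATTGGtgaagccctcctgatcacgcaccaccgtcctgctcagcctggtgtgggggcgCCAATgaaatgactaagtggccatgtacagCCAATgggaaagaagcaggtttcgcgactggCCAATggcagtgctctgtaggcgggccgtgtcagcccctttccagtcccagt

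The Txnip window held 4 matches to CACGNG, none of them CACGTG, and 2 of them, starting 85 and 74 bases before the gene, had 5 bases between them in the arrangement of a carbohydrate response element. Of 32851 promoter windows of this length, 23.5% held at least 1 match to CACGNG, 1.11% held 3 or more, and 15 windows (0.0457%) held 2 in that order at that spacing. Arrdc4 had 1 match to CACGNG, the full palindrome CACGTG that 6.02% of windows held, starting 193 bases before the gene. CCAAT was matched 2 times in the Txnip window and 6 times in that of Arrdc4, where 33.8% of windows held it at least once and 2.79% held 3 or more. No match to CACGNG was found in the windows of Slc2a1 or Arrdc3. These are matches of letters and say nothing of binding.

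The BM libraries held 2836 to 7517 cells after filtering, with a median of 4113 to 9512 UMIs per cell, and the tumor libraries held 1974 to 5064 cells with a median of 4724 to 6332 UMIs. No barcode was shared between libraries of 1 sort. Cells were assigned to samples by CellPlex tags, so a library here is the cells of 1 sample. Libraries of a sort may thus have been prepared together. Cells were clustered, and a cluster was called "-like" from fixed markers. The cluster of hematopoietic stem (HSC)-like cells had 6 of its list of markers detected, 3 of them among its 10 leading genes, and multipotent progenitor (MPP)-like cells formed 2 clusters with 8 markers detected in each. Levels are CPM, the UMIs of a gene per 1000000 UMIs of all cells of a class in a library. Changes between groups are log2 fold changes with their standard error (SE) from edgeR's quasi-likelihood test on these sums, fitted over all genes of a class. A gene was called when the adjusted p was under 0.01 and the log2 change was over 0.5 in size.

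Among the named classes of WT progenitors Txnip was highest in HSC-like cells, at 273 ± 27 CPM (SD, n = 2). Basophil and mast progenitor-like cells followed at 206 ± 4.7 CPM and MPP-like cells at 97.1 ± 1.4 CPM. Below them, eosinophil progenitor-like cells, with 1 library of enough cells, stood at 94.8 CPM and overlapped lymphoid-primed progenitor-like cells at 90.1 ± 14 CPM. Megakaryocyte progenitor-like cells were at 65.6 ± 5.2 CPM, erythroid progenitor-like cells at 49.3 ± 2.1 CPM, monocyte progenitor-like cells at 37.4 ± 2.0 CPM and neutrophil-committed granulocyte-monocyte progenitor (GMP)-like cells at 32.6 ± 3.0 CPM. Lymphoid-primed cells, at 80.3 and 99.8 CPM, also overlapped MPP-like cells, while the libraries of other neighbors in this order did not overlap. As a class HSC-like cells also led under vehicle (158 ± 28 CPM) and under IACS-70654 (412 ± 9.5 CPM). The order rests on pooled clusters, since 1 of the 2 basophil and mast progenitor-like clusters was above HSC-like cells in every group, at 376 and 387 CPM in WT, 273 and 285 CPM under vehicle and 428 and 535 CPM under IACS-70654. Clusters left unnamed had 198 and 183 CPM in WT, 116 and 97.6 CPM in vehicle and 205 and 200 CPM in IACS-70654 libraries.

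In HSC-like cells Txnip was at 178 and 139 CPM in the vehicle libraries, 405 and 419 CPM in the IACS-70654 libraries, and 292 and 254 CPM in the WT libraries. The IACS-70654 libraries were the highest, the vehicle libraries the lowest, and no group overlapped another. The log2 difference was 1.29 ± 0.09 (SE) for IACS-70654 over vehicle, 0.50 ± 0.09 for IACS-70654 over WT and -0.79 ± 0.11 for vehicle over WT. MPP-like cells had the same order at lower levels, with 61.1 and 57.1 CPM under vehicle, 129 and 136 CPM under IACS-70654 and 96.1 and 98.0 CPM in WT. There the log2 differences were 1.13 ± 0.07, 0.38 ± 0.07 and -0.75 ± 0.10. These comparisons share libraries, IACS-70654 and vehicle in these cells chose the genes, and 2.37% of all genes in HSC-like and 4.41% in MPP-like cells were called between those groups. The 2 MPP-like clusters each held the order by group on average, with 141 and 149 CPM under IACS-70654 against 60.9 and 56.2 CPM under vehicle in the larger one and 104 and 111 against 61.4 and 59.2 CPM in the smaller one. WT was at 102 and 95.1 CPM in the larger cluster. In the smaller cluster WT was at 75.1 and 107 CPM and overlapped IACS-70654.

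**Figure D1:**
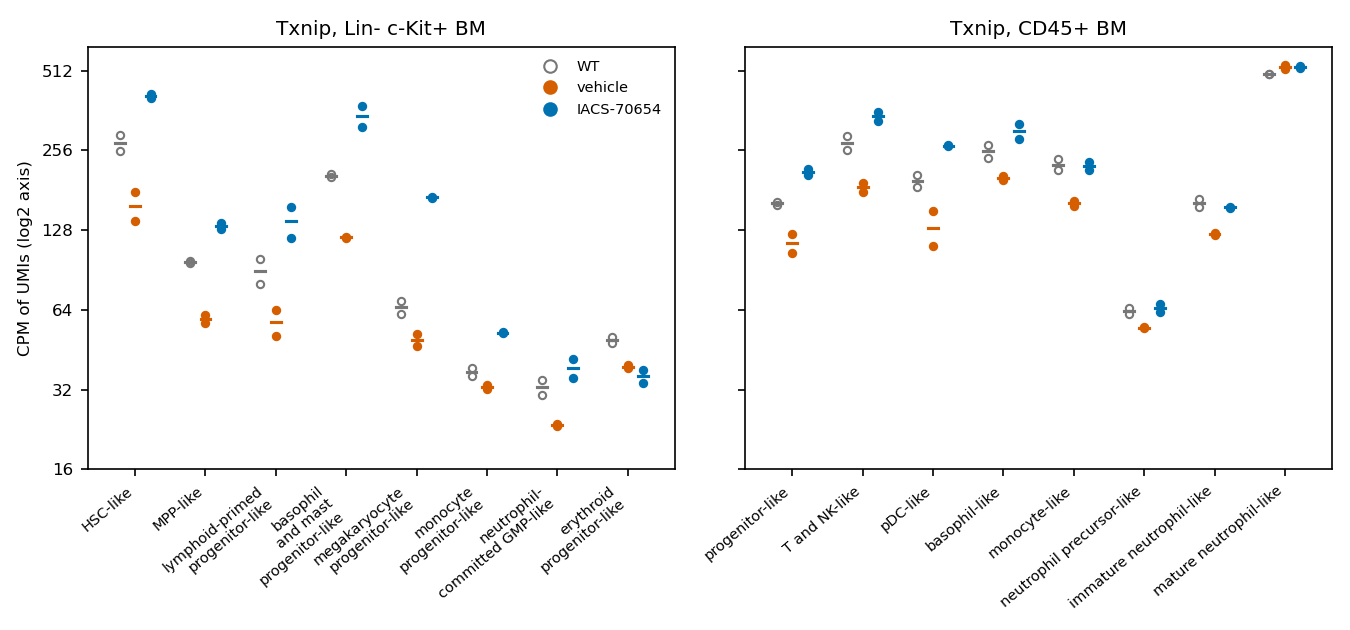
Txnip in CPM (log2 axis) in 8 classes of Lin- c-Kit+ BM and 8 classes of CD45+ BM. Each point is 1 library and each short line the mean of a group. In HSC-like cells the IACS-70654 libraries sat at 405 and 419 CPM and the vehicle libraries at 178 and 139 CPM, and in mature neutrophil-like cells all 6 libraries sat between 496 and 538 CPM.

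Per cell the same order was seen at equal depth. Each cell was thinned to 3000 UMIs, which left 485 and 274 HSC-like cells of the IACS-70654 libraries, 299 and 153 of the vehicle libraries and 167 and 149 of the WT libraries and left out 188, 101, 63, 32, 24 and 23 shallower cells, in that order. Txnip then averaged 1.22 and 1.25 UMIs per HSC-like cell under IACS-70654, 0.555 and 0.392 under vehicle and 0.868 and 0.799 in WT. At least 1 Txnip UMI was found in 64.9% and 61.3% of these cells under IACS-70654, 39.5% and 32.7% under vehicle and 53.3% and 47.7% in WT. Without thinning the shares were 73.7% and 72.8%, 51.1% and 45.4%, and 69.6% and 63.4%, and the median depth of HSC-like cells was 3703 and 3619, 4375.5 and 4598, and 4376 and 4492 UMIs. Txnip was found in every class, so no class without it could give the background of free RNA. Cells with 3 or more Txnip UMIs after thinning made up 13.4% and 17.2% under IACS-70654, 3.34% and 0.654% under vehicle and 8.38% and 10.1% in WT.

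Txnip was also compared between cells with and without RNA of S and G2/M phase, since it is known as a gene of quiescent cells. A cell counted as cycling with at least 2 UMIs of 12 such genes after thinning. Non-cycling cells had the higher mean in all 12 combinations of class and library. The gap was narrow in MPP-like cells of vehicle replicate 2 (0.217 against 0.201). How many other genes differ in this way was not counted, so the difference is not shown to be particular to Txnip. For HSC-like cells the means of non-cycling and cycling cells were 1.25 and 1.13 UMIs per thinned cell in IACS-70654 replicate 1 and 1.43 and 0.782 in replicate 2, against 0.60 and 0.465, and 0.464 and 0.209, under vehicle. These levels in IACS-70654 and vehicle libraries chose the members and are a description. In MPP-like cells non-cycling means were 0.566 and 0.569 under IACS-70654, 0.255 and 0.217 under vehicle and 0.361 and 0.431 in WT, and cycling means were 0.378 and 0.395, 0.185 and 0.201, and 0.259 and 0.271. The share of cells called cycling ranged over the 6 libraries from 27.4% to 34.2% in HSC-like and from 58.0% to 67.5% in MPP-like cells. This count rests on the same UMIs and can read free RNA.

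**Figure D2:**
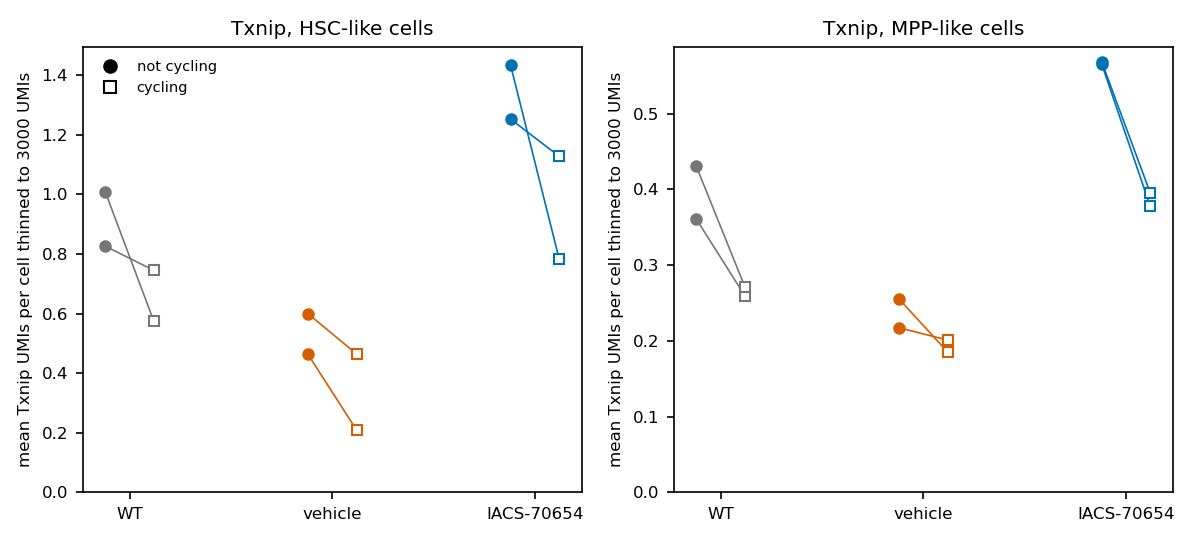
Mean Txnip UMIs per cell thinned to 3000 UMIs, in HSC-like and MPP-like cells by group. Filled circles are non-cycling and open squares cycling cells of 1 library, joined by a line. Every line falls from non-cycling to cycling cells, and in HSC-like cells the IACS-70654 means span 0.782 to 1.43.

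Values of the other members in stem and multipotent cells follow as a description. Txnip was chosen for its rise there, so its larger difference between IACS-70654 and vehicle was set by that choice. Arrdc4 in HSC-like cells was at 19.2 and 24.4 CPM under IACS-70654, 10.5 and 13.8 CPM under vehicle and 14.5 and 10.8 CPM in WT. IACS-70654 libraries were above all others, while vehicle and WT overlapped, and the log2 difference to vehicle was 0.82 ± 0.31. In MPP-like cells Arrdc4 was at 7.74 and 9.18 CPM under IACS-70654 against 3.86 and 9.79 CPM under vehicle, which overlapped. Arrdc3 differed between these groups by 0.26 in HSC-like and 0.13 in MPP-like cells on the log2 scale. Slc2a3 was lower under IACS-70654 in HSC-like cells, at 46.6 and 39.6 CPM against 66.5 and 68.9 CPM under vehicle and 74.8 and 87.6 CPM in WT. All 3 groups were apart, with a log2 difference to vehicle of -0.65 ± 0.16, and in MPP-like cells it was -0.52 ± 0.12. For Slc2a1 the HSC-like values were 18.8 and 18.5 CPM under IACS-70654, 22.7 and 34.4 CPM under vehicle and 17.9 and 7.2 CPM in WT, on 6 to 53 UMIs per library. Between vehicle and WT, where members other than Txnip could be tested, none of 8 pairs was called by edgeR in HSC-like or MPP-like cells, 1 had an unadjusted p under 0.05, and DESeq2 called none and gave 7 no adjusted p. Slc2a1 in HSC-like cells had a log2 change of 1.03 ± 0.35 (edgeR adjusted p = 0.14).

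In the remaining classes of Lin- c-Kit+ BM, which came from the same libraries, 10 of 30 tested pairs of member and class were called between IACS-70654 and vehicle, where 5.41% of all pairs of gene and class were. Of these, 8 were higher, where 2.19% of all pairs were, and 2 were lower, where 3.22% were. Txnip made up 5 of the 8 higher pairs, out of 8 classes tested, and Arrdc4 made up 3, out of 5. Both lower pairs were of Slc2a3, out of 6. Arrdc3, out of 5 classes, and Slc2a1, out of 6, were called in none by edgeR or DESeq2, with 0 and 1 at an unadjusted p under 0.05. DESeq2 called Txnip in 4 classes, Slc2a3 in 1 and Arrdc4 in none, and gave 7 of the 30 pairs no adjusted p, Arrdc4 in megakaryocyte progenitor-like cells among them. A pair was tested only where its counts passed edgeR's filter on low values, and it could pass through the group where it was high. Without that filter the same 10 pairs were called, of 39 tested.

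Among the classes tested in Lin- c-Kit+ BM, Txnip had its largest change in megakaryocyte progenitor-like cells, the source of platelets, with 171 and 170 CPM under IACS-70654, 52.0 and 46.8 CPM under vehicle and 69.2 and 61.9 CPM in WT. IACS-70654 libraries were far above both other groups, and the log2 change was 1.68 ± 0.13 (edgeR adjusted p = 2.7e-23). Basophil and mast progenitor-like cells had 314 and 377 CPM under IACS-70654, 121 and 120 CPM under vehicle and 202 and 209 CPM in WT. Here all 3 groups were apart, with a log2 change of 1.38 ± 0.09 (edgeR adjusted p = 4.8e-19). This class joined 2 clusters, and the one with more Txnip, led by Gzmb, held 69.5% of its cells under IACS-70654, 24.4% under vehicle and 40.5% in WT. Within the clusters the log2 ratio of mean CPM was smaller, with 0.79 in that cluster (481 against 279 CPM) and 0.95 in the other, led by Prss34 (175 against 90.5 CPM). Lymphoid-primed progenitor-like cells, which carry Dntt, had 120 and 157 CPM against 63.7 and 51.2 CPM under vehicle, a log2 change of 1.1 ± 0.19 (edgeR adjusted p = 3.6e-05). Without vehicle replicate 1 that change was 1.33 and was not called.

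Myeloid progenitors showed smaller rises of Txnip. Monocyte progenitor-like cells had 52.5 and 52.7 CPM under IACS-70654 against 32.2 and 33.4 CPM under vehicle, a log2 change of 0.66 ± 0.08 (edgeR adjusted p = 4.3e-11). In GMP-like cells Txnip was at 41.7 and 35.4 CPM against 23.8 and 23.3 CPM, a log2 change of 0.68 ± 0.08 (edgeR adjusted p = 6.9e-13). WT libraries lay between these groups in both classes, at 38.8 and 36.0 CPM and at 30.5 and 34.7 CPM. RNA of 5 neutrophil genes (S100a8, S100a9, Camp, Ngp, Ltf) summed to 5163 to 5900 CPM in GMP-like cells under IACS-70654, 1216 to 1468 CPM under vehicle and 552 to 796 CPM in WT, with at most 1 of the genes at 0 in a library, and to 292 to 451, 53.3 to 53.9 and 37.4 to 53.7 CPM in monocyte progenitor-like cells. Its part in the rise of Txnip in these 2 classes was not tested. In HSC-like cells the same sum was 67.3 to 69.7 CPM under IACS-70654, 57.4 to 61.8 CPM under vehicle and 68.1 to 69.6 CPM in WT.

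Erythroid progenitor-like cells stood apart. Their Txnip was at 38.1 and 33.9 CPM under IACS-70654, 38.7 and 39.6 CPM under vehicle and 47.8 and 50.8 CPM in WT. Only the WT libraries lay clearly above the rest, and the change from vehicle to IACS-70654 was -0.09 ± 0.09 (edgeR adjusted p = 0.51). B-lineage-like and eosinophil progenitor-like cells, with 7 to 31 Txnip UMIs per library, had log2 changes of 0.89 ± 0.36 (edgeR adjusted p = 0.56) and 0.72 ± 0.52 (edgeR adjusted p = 0.76), and neither was called.

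Between vehicle and WT 1 of 37 tested pairs was called in Lin- c-Kit+ BM, where 0.9% of all pairs were. That pair was Txnip in basophil and mast progenitor-like cells, lower under vehicle than in WT by -0.76 ± 0.09 on the log2 scale (edgeR adjusted p = 7.7e-09). Within its 2 clusters, whose shares differed as given above, the log2 ratio of mean CPM was -0.57 and -0.45, and of 7 handling genes tested in this class 1 was higher and 2 were lower. Txnip in GMP-like cells, at -0.47 ± 0.12 (edgeR adjusted p = 2.3e-03), and in erythroid progenitor-like cells, at -0.36 ± 0.08 (edgeR adjusted p = 6.6e-03), had changes under 0.5 in size. In lymphoid-primed, megakaryocyte and monocyte progenitor-like cells the changes were -0.59, -0.42 and -0.24, with edgeR adjusted p of 0.43, 0.20 and 0.11.

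IACS-70654 against WT compares tumor and drug together with neither. Here 5 of 29 pairs were called, where 4.72% of all pairs were. Txnip was higher in megakaryocyte progenitor-like cells by 1.26 ± 0.12 (edgeR adjusted p = 3.0e-17) and in basophil and mast progenitor-like cells by 0.62 ± 0.09 (edgeR adjusted p = 9.1e-07), the latter with 0.49 and no call without IACS-70654 replicate 2. Within the 2 clusters of basophil and mast progenitor-like cells the log2 ratio of mean CPM was 0.37 and 0.34, both under 0.5. Slc2a3 was lower in 3 classes, given with its levels below. Txnip had log2 changes under 0.5 in size in monocyte progenitor-like cells (0.42, edgeR adjusted p = 3.8e-04) and erythroid progenitor-like cells (-0.45, edgeR adjusted p = 4.6e-05). For GMP-like cells the change was 0.21 (edgeR adjusted p = 0.18).

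**Figure D3:**
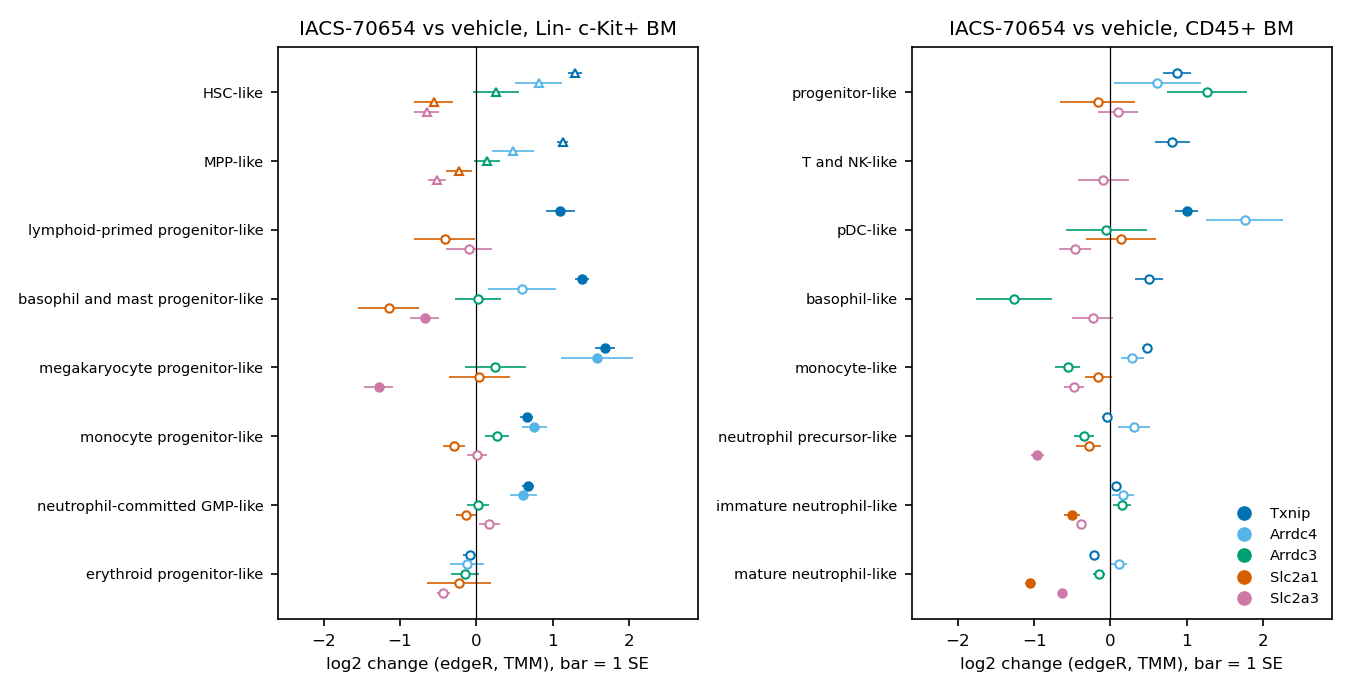
Log2 change from vehicle to IACS-70654 of the 5 members in 8 classes of each BM sort, with bars of 1 SE. Filled circles were called, open circles were not, and triangles in HSC-like and MPP-like cells were not tested. Txnip is the rightmost filled point in megakaryocyte progenitor-like cells at 1.68, and Slc2a3 is the leftmost there at -1.28.

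Arrdc4 was sparse, with 5 to 27 UMIs per library in megakaryocyte progenitor-like cells, where it was at 13.3 and 10.9 CPM under IACS-70654, 3.06 and 6.15 CPM under vehicle and 4.47 and 8.44 CPM in WT. IACS-70654 libraries were the highest, with a log2 change from vehicle of 1.58 ± 0.47 (edgeR adjusted p = 9.7e-03). The call was lost when any 1 of the 6 libraries was left out, with changes of 0.93 to 1.92, and with the replicate block, the wider cell filter and either way of leaving out doublets. Monocyte progenitor-like cells had 11.1 and 16.3 CPM under IACS-70654 against 7.96 and 6.68 CPM under vehicle, a log2 change of 0.76 ± 0.16 (edgeR adjusted p = 9.6e-05) that fell to 0.52 without a call when IACS-70654 replicate 2 was left out and was not called in DESeq2 (0.84). GMP-like cells had 8.27 and 6.05 CPM against 4.99 and 3.98 CPM, a log2 change of 0.61 ± 0.17 (edgeR adjusted p = 3.2e-03). It was not called without vehicle replicate 1 (0.86), vehicle replicate 2 (0.52) or IACS-70654 replicate 1 (0.31), in DESeq2 (0.61) or with the wider cell filter (0.65). In erythroid progenitor-like cells, where Txnip was not called either, Arrdc4 changed by -0.12 (edgeR adjusted p = 0.76).

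Arrdc3 in WT progenitors was at 21.3 ± 3.0 CPM in HSC-like cells and at 5.25 ± 0.47 CPM in megakaryocyte progenitor-like cells. Its log2 changes between IACS-70654 and vehicle lay between -0.15 and 0.27 in the 5 classes tested outside stem and multipotent cells. Monocyte progenitor-like cells had the nearest change between vehicle and WT to a call, with 9.29 and 10.9 CPM under vehicle against 14.1 and 13.2 CPM in WT, a log2 change of -0.52 ± 0.16 (edgeR adjusted p = 0.020).

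Slc2a3 in WT progenitors was highest in HSC-like cells at 81.2 ± 9.1 CPM, followed by basophil and mast progenitor-like cells at 62.5 ± 10 CPM, which overlapped megakaryocyte progenitor-like cells at 60.5 ± 2.0 CPM, and it was lowest in monocyte progenitor-like cells at 15.6 ± 1.1 CPM and GMP-like cells at 11.7 ± 0.77 CPM. In megakaryocyte progenitor-like cells it was at 29.6 and 24.3 CPM under IACS-70654, 65.5 and 59.1 CPM under vehicle and 62.0 and 59.1 CPM in WT. Vehicle and WT overlapped and IACS-70654 was below both, with log2 changes of -1.28 ± 0.19 from vehicle (edgeR adjusted p = 1.7e-08) and -1.25 from WT (edgeR adjusted p = 2.2e-08). Basophil and mast progenitor-like cells had 33.8 and 43.0 CPM under IACS-70654, 57.2 and 50.1 CPM under vehicle and 69.7 and 55.3 CPM in WT. The change from vehicle was -0.68 ± 0.19 (edgeR adjusted p = 6.6e-03) and was not called without vehicle replicate 1 (-0.54), IACS-70654 replicate 1 (-0.45) or IACS-70654 replicate 2 (-0.83), in DESeq2 (-0.62) or with library totals (-0.57). Within the 2 clusters of this class the log2 ratio of mean CPM was -1.04 (44.9 against 92.3 CPM) and -0.64 (29.9 against 46.5 CPM). The change from WT was -0.88 (edgeR adjusted p = 1.3e-03) and was not called without IACS-70654 replicate 1 (-0.65) or WT replicate 1 (-0.69) or in DESeq2 (-0.84).

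Erythroid progenitor-like cells, in which Txnip was not called, had Slc2a3 at 30.03 and 28.6 CPM under IACS-70654, 39.1 and 41.9 CPM under vehicle and 42.3 and 44.2 CPM in WT. All 3 groups were apart, and the change was -0.57 ± 0.08 from WT (edgeR adjusted p = 2.4e-06), which was called, and -0.43 ± 0.09 from vehicle (edgeR adjusted p = 4.5e-04), which was under 0.5 in size. Within its 3 clusters the log2 ratio of mean CPM from vehicle was -0.67, -0.43 and 0.25, and from WT it was -0.81, -0.42 and -0.01. RNA of 5 erythroid genes summed to 610 to 611 CPM in this class under IACS-70654, 465 to 560 CPM under vehicle and 204 to 296 CPM in WT, and its part was not tested. In lymphoid-primed, monocyte progenitor-like and GMP-like cells Slc2a3 changed from vehicle by -0.10, 0.01 and 0.17 and was not called.

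Slc2a1 was low in progenitors, with means of 8.29 to 12.5 CPM in 8 of the WT classes, the unnamed cells among them, which overlapped their neighbors, and 1.33 ± 0.079 CPM in erythroid progenitor-like cells. Basophil and mast progenitor-like cells had 5.77 and 9.55 CPM under IACS-70654, 15.3 and 13.1 CPM under vehicle and 8.51 and 9.71 CPM in WT. The vehicle libraries were the highest, but the change of -1.15 ± 0.40 was not called (edgeR adjusted p = 0.032). Slc2a1 had 6 to 68 UMIs per library in that class.

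CD45+ BM was a separate sort, possibly of the same mice, and holds the mature cells. WT mature neutrophil-like cells had the highest Txnip, at 497 ± 1.5 CPM, followed by T and NK-like cells at 274 ± 25 CPM, which overlapped basophil-like cells at 255 ± 21 CPM. Monocyte-like cells were at 227 ± 15 CPM, plasmacytoid dendritic (pDC)-like cells at 196 ± 14 CPM and immature neutrophil-like cells at 162 ± 8.2 CPM, which overlapped progenitor-like cells. B cell-like cells were at 131 ± 9.3 CPM and neutrophil precursor-like cells were lowest at 63.4 ± 2.1 CPM. Along the neutrophil series Txnip was thus lowest in precursors and highest in mature cells in all 6 libraries.

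In this sort 5 of 39 tested pairs of member and class were called between IACS-70654 and vehicle, where 10.2% of all pairs of gene and class were. A single pair was higher, where 5.37% of all pairs were, and 4 were lower, where 4.84% were. The higher pair was Txnip in pDC-like cells, which make type I interferon, with 266 and 268 CPM under IACS-70654, 111 and 151 CPM under vehicle and 187 and 206 CPM in WT. All 3 groups were apart and the log2 change was 1.00 ± 0.15 (edgeR adjusted p = 5.1e-05). Arrdc4 in the same cells was at 20.6 and 26.3 CPM against 11.3 and 2.84 CPM, on 2 to 29 UMIs per library, and its change of 1.76 ± 0.50 was not called (edgeR adjusted p = 0.026). RNA of the 5 neutrophil genes in pDC-like cells summed to 24269 to 35303 CPM under IACS-70654, 27225 to 28863 CPM under vehicle and 13400 to 20483 CPM in WT.

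Of 9 pairs of Txnip and class in this sort that 1 was called, where 10.2% of all pairs were. Levels in monocyte-like, T and NK-like, basophil-like and progenitor-like cells, which were without a call, are given as a description. How many other genes stood apart in this way was not counted. Monocyte-like cells had 232 and 216 CPM under IACS-70654, 158 and 165 CPM under vehicle and 216 and 238 CPM in WT. IACS-70654 and WT overlapped, vehicle was below both, and the changes were 0.48 ± 0.06 from vehicle (edgeR adjusted p = 3.1e-06) and -0.497 ± 0.07 between vehicle and WT (edgeR adjusted p = 1.7e-05), both under 0.5 in size. The first passed 0.5 when IACS-70654 replicate 2 was left out (0.53), without the count filter (0.50) and without the highest doublet scores (0.53). T and NK-like cells had 357 and 332 CPM against 179 and 193 CPM under vehicle (log2 change 0.81 ± 0.23, edgeR adjusted p = 0.11), from 21 and 22 cells in the vehicle libraries, whose neutrophil RNA summed to 80095 to 90759 CPM against 22568 to 30073 CPM under IACS-70654. Basophil-like cells had 323 and 284 CPM against 206 and 198 CPM (0.51, edgeR adjusted p = 0.15), and progenitor-like cells had 207 and 218 CPM against 124 and 105 CPM (0.87 ± 0.18, edgeR adjusted p = 0.061). The last was called without the count filter (0.92, edgeR adjusted p = 2.4e-03) and with the wider cell filter (1.07, edgeR adjusted p = 1.5e-03). Progenitor-like cells of this sort carry Kit and Cd34 and had 33 and 40 cells in the vehicle libraries.

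Mature neutrophil-like cells had Txnip at 523 and 533 CPM under IACS-70654, 538 and 519 CPM under vehicle and 498 and 496 CPM in WT. IACS-70654 and vehicle overlapped, and the change between them was -0.22 ± 0.03 (edgeR adjusted p = 9.5e-08), under 0.5 in size. Scaling by trimmed means (TMM) lowered the changes of all genes in these cells, and with library totals alone the median of all genes was 0.22 and the change of Txnip was 0.00096, so no direction is given. In neutrophil precursor-like cells the change was -0.05 with TMM and 0.25 with library totals, where the median of all genes was 0.30. Immature neutrophil-like cells had 155 and 157 CPM under IACS-70654 against 123 and 125 CPM under vehicle, a change of 0.07 (edgeR adjusted p = 0.15) with the median of all genes at 0.28 under library totals. Different clusters held these classes in the 3 groups: among mature neutrophil-like clusters 1 was 94.3% from IACS-70654, 1 was 72% from vehicle and 1 was 87.9% from WT cells, and among immature ones 1 was 91.0% from IACS-70654 and 1 was 57.4% from vehicle cells. A further immature cluster held 31.9% of the IACS-70654, 3.03% of the vehicle and 0.573% of the WT cells of its class. Of 5 precursor-like clusters, 1 held 52.2% of the vehicle, 52.1% of the WT and 9.06% of the IACS-70654 cells of the class.

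Both glucose transporters were called in cells of the neutrophil series, which held all 4 lower pairs between IACS-70654 and vehicle. In that comparison 24.2% of all genes were called in precursor-like, 18.7% in immature and 19.3% in mature neutrophil-like cells. Slc2a1 in mature neutrophil-like cells was at 89.1 and 87.4 CPM under vehicle, 48.4 and 50.8 CPM under IACS-70654 and 50.4 and 56.5 CPM in WT. The vehicle libraries stood alone above the other groups, which overlapped. The log2 change was 0.77 ± 0.09 from WT to vehicle (edgeR adjusted p = 2.5e-09) and -1.05 ± 0.07 from vehicle to IACS-70654 (edgeR adjusted p = 4.7e-17), the latter -0.83 with library totals. Within single clusters the log2 ratio of mean CPM was 0.39 to 0.79 from WT to vehicle and -1.01 to -0.49 from vehicle to IACS-70654. These comparisons share the vehicle libraries. Of all genes in these cells, 7.81% were called between vehicle and WT and 19.3% between IACS-70654 and vehicle.

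Immature neutrophil-like cells had Slc2a1 at 18 and 18.9 CPM under vehicle, 14.4 and 16.6 CPM under IACS-70654 and 12.5 and 10.3 CPM in WT. All 3 groups were apart, with changes of 0.95 ± 0.13 from WT to vehicle (edgeR adjusted p = 1.7e-08) and -0.50 ± 0.10 from vehicle to IACS-70654 (edgeR adjusted p = 2.4e-05). The second was not called without vehicle replicate 2 (-0.47) or IACS-70654 replicate 1 (-0.41) or with library totals (-0.24), in DESeq2 (-0.53, adjusted p = 0.012), with the wider cell filter (-0.47), at resolution 2 (-0.38) or without the highest doublet scores (-0.46), and within the 5 clusters the log2 ratio of mean CPM was -0.55 to -0.08. Precursor-like cells overlapped in all groups, at 6.94 to 10.2 CPM.

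Slc2a3 in WT CD45+ BM was at 652 ± 17 CPM in mature and 396 ± 6.7 CPM in immature neutrophil-like cells, 113 ± 15 CPM in basophil-like cells and 25.2 ± 2.0 CPM in monocyte-like cells. In mature neutrophil-like cells it was at 437 and 447 CPM under IACS-70654, 592 and 581 CPM under vehicle and 640 and 664 CPM in WT. The 3 groups were apart, and IACS-70654 was lower than vehicle by -0.63 ± 0.03 (edgeR adjusted p = 6.8e-22), or -0.41 and uncalled with library totals and -0.67 to -0.19 in mean CPM within clusters, and lower than WT by -0.74 ± 0.04 (edgeR adjusted p = 1.3e-22). Within the 3 clusters with both groups the log2 ratio of mean CPM to WT was -0.40 to -0.21, and a further cluster held 62.0% of the WT and 0.448% of the IACS-70654 cells. In precursor-like cells Slc2a3 was at 63.7 and 60.4 CPM under IACS-70654, 88.4 and 106 CPM under vehicle and 85.2 and 68.4 CPM in WT. IACS-70654 was below both groups and vehicle above WT, with changes of -0.96 ± 0.08 from vehicle (edgeR adjusted p = 3.5e-09) and 0.50 ± 0.09 from WT to vehicle (edgeR adjusted p = 4.5e-04). The size of the first change depends on TMM. From vehicle to IACS-70654 the median of all genes in precursor-like cells was 0.006 with TMM and 0.30 with library totals. The rise from WT to vehicle was not called without vehicle replicate 2 (0.35) or WT replicate 2 (0.36) or with library totals (0.35) or when only the 2 groups were fitted (0.4997). Within the 5 clusters the log2 ratio of mean CPM of Slc2a3 from vehicle to IACS-70654 was smaller than in the class, at -0.04 in the cluster that held most vehicle cells (117 against 120 CPM) and -0.68 to -0.19 in the others, and from WT to vehicle it was 0.10 to 0.48 in the 4 clusters with both groups. Immature cells had 339 and 316 CPM against 360 and 354 CPM under vehicle, a change of -0.38 ± 0.03 (edgeR adjusted p = 3.5e-19), under 0.5 in size. This change rests on TMM, and the median of all genes in these cells was 0.02 with it and 0.28 with library totals.

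**Figure D4:**
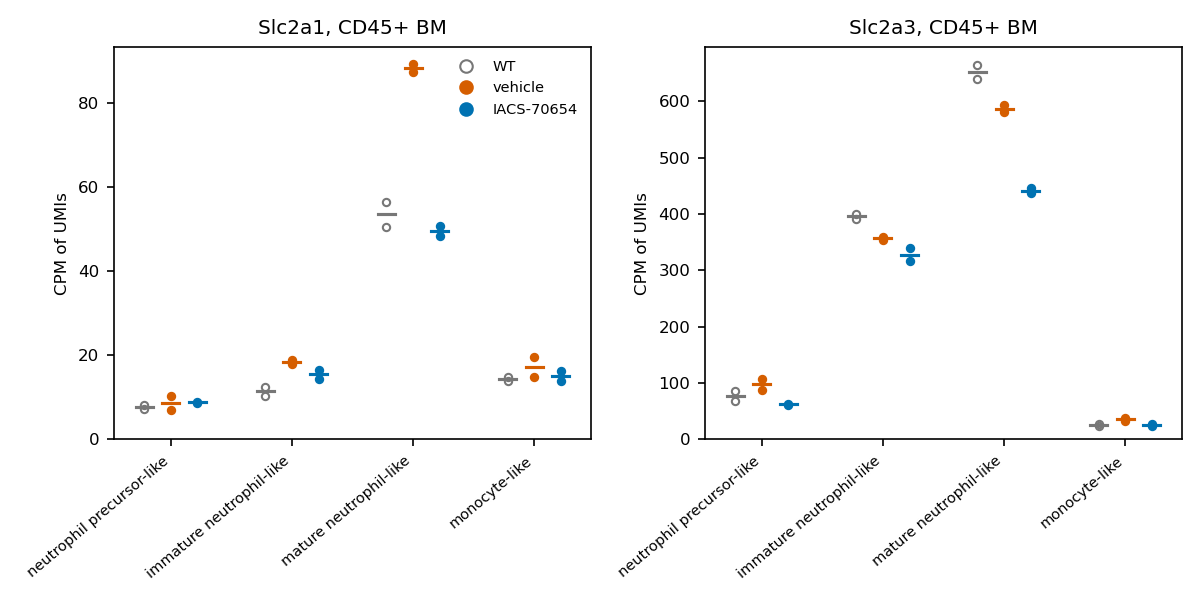
Slc2a1 and Slc2a3 in CPM in the neutrophil series and in monocyte-like cells of CD45+ BM. Each point is 1 library and each line a group's mean. In mature neutrophil-like cells Slc2a1 sat at 87.4 and 89.1 CPM in the vehicle libraries and at 48.4 to 56.5 CPM in the other 4, and Slc2a3 was lowest in the IACS-70654 libraries at 437 and 447 CPM.

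Over the whole sort 3 of 39 pairs were called between vehicle and WT, where 2.85% of all pairs were, and all 3 were the higher glucose transporters given above. Against WT, IACS-70654 gave 3 called pairs of 39, all lower, where 8.87% of all pairs were called and 4.5% were lower. Beside Slc2a3 in mature neutrophil-like cells these were of Arrdc3. Arrdc3 in mature neutrophil-like cells was at 59.9 and 62.0 CPM under IACS-70654, 57.8 and 58.7 CPM under vehicle and 89.0 and 80.3 CPM in WT. The WT libraries were above both tumor-bearing groups, with changes from WT of -0.65 ± 0.09 for IACS-70654 (edgeR adjusted p = 2.6e-08), -0.47 and uncalled with library totals, and -0.49 ± 0.09 for vehicle (edgeR adjusted p = 1.5e-05), under 0.5 in size. Within clusters the log2 ratio of mean CPM to WT was larger for IACS-70654, at -0.93 to -0.83 in 3 clusters, and was -1.01 to -0.21 in 4 clusters for vehicle. In monocyte-like cells it was at 17.7 and 16.6 CPM under IACS-70654, 21.8 and 29.1 CPM under vehicle and 27.3 and 29.8 CPM in WT, a change from WT of -0.74 ± 0.15 (edgeR adjusted p = 8.5e-04). This was not called without IACS-70654 replicate 2 (-0.69) or WT replicate 2 (-0.66) or in DESeq2 (-0.73).

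Arrdc4 was called by neither edgeR nor DESeq2 in CD45+ BM, with 1 of 6 pairs at an unadjusted p under 0.05 between IACS-70654 and vehicle. It was at 32.2 and 34.1 CPM under IACS-70654, 28.5 and 24.7 CPM under vehicle and 26.8 and 25.2 CPM in WT mature neutrophil-like cells, and at 26.9 and 27.6, 24.3 and 20.8, and 28.7 and 23.8 CPM in monocyte-like cells. Slc2a3 in T and NK-like cells, at 157 and 90.0 CPM under vehicle and 125 and 124 CPM under IACS-70654, overlapped. B cell-like cells had 16 cells in IACS-70654 replicate 1, too few for a sum, so their changes rest on 5 libraries, and Txnip there was at 193 CPM in the remaining IACS-70654 library against 117 and 130 CPM under vehicle (0.64, edgeR adjusted p = 0.18). It was called at resolution 2 (0.94, edgeR adjusted p = 4.3e-05). Of the 43 IACS-70654 cells of this class 51.2% sat in 1 cluster, against 10.2% under vehicle, and neutrophil RNA summed to 70075 CPM against 49584 to 53658 CPM, and their part was not tested.

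Genes around the members were counted by lists. Between IACS-70654 and vehicle the share of all genes called was 24.2% in neutrophil precursor-like and 18.7% in immature neutrophil-like cells, 8.74% in basophil and mast, 6.66% in GMP-like, 6.1% in monocyte, 5.99% in erythroid, 5.47% in megakaryocyte and 2.23% in lymphoid-primed progenitor-like cells, and 4.44% in pDC-like cells. In mature neutrophil-like cells it was 19.3%, and the median log2 change of all genes was 0.00. This median and those of the lists use TMM, and with library totals alone the median of all genes was 0.22. Of 12 genes known to respond to hypoxia, 10 were tested in those cells, and 9 were lower under IACS-70654 than under vehicle, with a list median of -1.14. Against WT, vehicle had 8 of the 10 higher, with a median of 0.77, where 7.81% of all genes were called. Hypoxia genes were not compared within clusters, and the clusters of this class differed between groups as given above. Mif, a cytokine, was at 75.5 and 76.2 CPM under vehicle, 19.2 and 22.3 CPM under IACS-70654 and 17.0 and 20.1 CPM in WT, and fell with IACS-70654 by -2.08 ± 0.09 on the log2 scale (edgeR adjusted p = 3.8e-24). Vehicle was far above the other groups. Ankrd37 changed by -2.85, Pdk1 by -2.22, and Egln3, a prolyl hydroxylase of HIF, by -1.62. From WT to vehicle Ankrd37 changed by 2.53, Mif by 2.08, Pdk1 by 1.39 and Bnip3 by 1.11. Hk2, a hexokinase that commits glucose to glycolysis, was at 52.1 and 46.7 CPM under vehicle, 24.3 and 31.9 CPM under IACS-70654 and 30.1 and 27.6 CPM in WT, a change with IACS-70654 of -1.01 ± 0.10 (edgeR adjusted p = 9.4e-12). It was the 1 hexokinase called of 3 tested, with a list median of -0.32.

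Other classes had fewer hypoxia genes called between IACS-70654 and vehicle. In basophil and mast progenitor-like cells 3 of 9 tested were lower (Pgk1 -0.74, Mif -0.62, Ldha -0.51), with a list median of -0.46, and in lymphoid-primed progenitor-like cells 2 of 9 were lower (Pgk1 -0.74, Mif -0.72), with a median of -0.45, against medians of all genes of 0.00 in both. Megakaryocyte progenitor-like cells had 1 of 11 lower (Mif -0.77) and erythroid progenitor-like cells 1 higher (Hif1a 0.54) and 2 lower (Vegfa -1.41, Ndrg1 -0.91) of 11. Neutrophil precursor-like cells had 3 of 11 higher (Car9 1.29, Bnip3 0.99, Mif 0.70), with a list median of 0.33. DESeq2 called 4 of the 9 hypoxia pairs that edgeR called in Lin- c-Kit+ BM outside stem and multipotent cells, Mif in 3 classes and Pgk1 in basophil and mast progenitor-like cells, and gave 14 of the 70 tested no adjusted p. Of all pairs of gene and class edgeR called 5.41% in those Lin- c-Kit+ classes. In CD45+ BM edgeR called 14 of 74 and DESeq2 11, where edgeR called 10.2% of all pairs. Of the hexokinases, Hk2 was also lower in immature neutrophil-like (-0.55), precursor-like (-0.52) and basophil and mast progenitor-like cells (-1.13).

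For the thioredoxin system, which TXNIP binds, 11 of 13 genes were tested in mature neutrophil-like cells, and 3 were higher and 3 lower under IACS-70654 than under vehicle, with a list median of -0.30. That median also rests on TMM, where library totals put the median of all genes at 0.22. Prdx1 (0.96) and Txn2 (0.72) were higher, and Srxn1 (-1.39) and Txn1 (-0.96) lower. Txn1, thioredoxin itself, was at 2728 and 2673 CPM under vehicle, 1609 and 1623 CPM under IACS-70654 and 2168 and 2160 CPM in WT, so all 3 groups were apart. Immature cells had 3 higher and 3 lower of 12, and precursor-like cells 4 higher and 3 lower of 12. In progenitors single genes were called: Prdx6 was lower in megakaryocyte (-0.57) and basophil and mast progenitor-like cells (-0.62), Txn1 in lymphoid-primed (-0.54) and Txnrd2 in erythroid progenitor-like cells (-0.69), and in GMP-like cells Prdx4 was higher (0.62) and Glrx lower (-0.58).

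FOXO factors, which act in nutrient-poor and quiescent cells, and their known targets made a list of 11. In GMP-like cells 3 of 11 were higher under IACS-70654 than under vehicle, with a list median of 0.35 (all genes 0.01), led by Foxo1 (0.99) and Sesn3 (0.88). Monocyte progenitor-like cells had 3 higher (Bcl6 0.81, Foxo1 0.73, Cdkn1b 0.54) and 1 lower (Klf2 -0.52) of 11. Cdkn1b, an inhibitor of the cell cycle, was the gene called in lymphoid-primed (1.14) and basophil and mast progenitor-like cells (0.68). In Lin- c-Kit+ BM outside stem and multipotent cells edgeR called 12 of 69 pairs of FOXO gene and class, where 5.41% of all pairs were. DESeq2, which gave 21 no adjusted p, called 1. In CD45+ BM edgeR called 14 of 88, where 10.2% of all pairs were, and DESeq2 called 12. In mature neutrophil-like cells Foxo1 was at 16.9 and 17.3 CPM under IACS-70654, 4.2 and 3.58 CPM under vehicle and 3.27 and 2.38 CPM in WT, a change from vehicle of 1.93 ± 0.19 (edgeR adjusted p = 1.0e-11), and 2 of the 11 were higher and 3 lower.

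Regulators and relatives of the members were called in few classes. Of the glucose-sensing factors Mlxip, Mlxipl and Mlx, none was called between IACS-70654 and vehicle by edgeR or DESeq2. There were 13 pairs of gene and class in Lin- c-Kit+ BM outside stem and multipotent cells and 17 in CD45+ BM. Of these, 2 and 4 had an unadjusted edgeR p under 0.05, and DESeq2 gave 4 and 1 no adjusted p. Of all pairs edgeR called 5.41% and 10.2%, so the lack of calls in so few pairs is no result. Of the alpha-arrestins beside the members, Arrdc2 was lower under IACS-70654 in mature neutrophil-like (-0.95) and erythroid progenitor-like cells (-0.98), and DESeq2 called it in neither (adjusted p = 0.048 and 0.041). Among other hexose transporters Slc2a8 was higher in basophil and mast progenitor-like (2.07) and neutrophil precursor-like cells (1.58), and Slc2a6 was lower in mature neutrophil-like cells (-0.54). In DESeq2 Slc2a8 had no adjusted p in the first class and was not called in the second (adjusted p = 0.030), and in the first its call was lost without any 1 of the 6 libraries (1.95 to 2.12). NEDD4-type ligases, which alpha-arrestins recruit, had Wwp2 lower in mature neutrophil-like (-0.56), Smurf1 lower in precursor-like (-0.59) and Smurf2 higher in pDC-like cells (0.70). These were 3 of 60 pairs in CD45+ BM, where 10.2% of all pairs were called. In Lin- c-Kit+ BM outside stem and multipotent cells none of 53 was, where 5.41% were. Nedd4 was lower under vehicle than in WT in monocyte progenitor-like (-0.96), mature neutrophil-like (-0.99), immature neutrophil-like (-0.51) and MPP-like cells (-0.50).

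Genes that rise with handling of cells differed between groups in most classes where members were called. Between IACS-70654 and vehicle edgeR called 11 of 58 pairs of handling gene and class in Lin- c-Kit+ BM outside stem and multipotent cells, where 5.41% of all pairs were, and 17 of 68 in CD45+ BM, where 10.2% were. DESeq2 called 4 and 10. HSC-like cells had 1 of 6 lower (Fosb -0.58) and MPP-like cells 2 of 9 (Fosb -0.95, Egr1 -0.51). Erythroid progenitor-like cells had 3 of 9 higher, lymphoid-primed 1 of 6 higher, and basophil and mast 1 of 7, monocyte 1 of 9 and GMP-like cells 1 of 9 lower. In megakaryocyte progenitor-like cells 4 of 9 were higher under IACS-70654 than under vehicle (Atf3 2.51, Fos 0.98, Ier2 0.63, Jun 0.54), and 3 (Fos, Jun, Ier2) were lower under vehicle than in WT. Over all classes of Lin- c-Kit+ BM, 11 of 69 pairs of handling gene and class were called between vehicle and WT, where 0.9% of all pairs were. Mature neutrophil-like cells had 3 higher, led by Hspa1a (1.80) and Jun (1.56), and 1 lower (Junb -0.58) of 9, immature cells 3 higher and 2 lower of 9, and precursor-like cells 2 higher and 3 lower of 8. In pDC-like cells Atf3 was higher by 2.97, in B cell-like cells 1 of 7 was higher, and in monocyte-like cells Egr1 was lower by -0.61. The part of handling in the members' changes was not tested.

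Genes with the pattern most like that of each member over the sums of class and library were listed as a description, over 58 sums of Lin- c-Kit+ BM and 53 of CD45+ BM that share libraries and depth. For Txnip in Lin- c-Kit+ BM these were Exoc6b (Pearson's r of log2 levels 0.894), Malat1 (0.888) and Tpt1 (0.888), and in CD45+ BM Stat5b (0.888), Akap13 (0.863) and Fbxl20 (0.845). Slc2a3 was most like Znrf3 (0.801), Coq10b (0.753) and Mzt1 (0.745) in Lin- c-Kit+ BM and like Mxd1 (0.914), Cxcr2 (0.908) and Adam8 (0.903) in CD45+ BM. Slc2a1 in CD45+ BM was most like Ezh1 (0.730), Junb (0.721) and Stx17 (0.706), and Arrdc4 like Cd300a (0.818), Chmp4b (0.801) and Ggh (0.788). Only genes of at least 20 CPM on average could be listed. Arrdc4 in both sorts (8.49 and 12.3 CPM) and Arrdc3 (12.5 CPM) and Slc2a1 (10.4 CPM) in Lin- c-Kit+ BM were below that. Of the members that could be listed, none was among the 3 genes most like another member.

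Tumor libraries came as 1 per treatment, so their differences have no replicate check and carry no test. Values are given with exact 95% Poisson intervals, and log2 ratios with exact binomial intervals, both covering counting error only. Tumor cells, 398, 812, 493 and 1227 in the vehicle, IACS-70654, anti-PD1 and combined libraries, were named by epithelial keratins and Epcam, with 4 or 5 markers detected in each cluster. Txnip in tumor cells was at 32.5 CPM (28.2 to 37.3) under vehicle, 61.2 CPM (56.9 to 65.7) under IACS-70654, 27.9 CPM (24.4 to 31.7) under anti-PD1 and 42.2 CPM (39.3 to 45.3) under both drugs. Both libraries with IACS-70654 were above both without it. The log2 ratio was 0.91 (0.69 to 1.14) for IACS-70654 over vehicle, 0.60 (0.39 to 0.82) for both drugs over anti-PD1 and -0.54 (-0.68 to -0.39) for both drugs over IACS-70654. For anti-PD1 over vehicle it was -0.22, and its interval of -0.50 to 0.06 held 0. Of genes with 20 or more UMIs in a pair of libraries, 21.3% in tumor cells differed by over 0.5 between IACS-70654 and vehicle. Between both drugs and anti-PD1 22.2% did. These shares and those of the other tumor classes use log2 ratios of CPM + 1. With cells thinned to 2000 UMIs the ratio of Txnip for IACS-70654 over vehicle was 1.51, outside that interval, on 113 and 19 UMIs.

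Arrdc3 moved the other way in tumor cells. It was at 41.3 CPM under vehicle, 17.2 CPM under IACS-70654, 43.1 CPM under anti-PD1 and 14.9 CPM under both drugs, with log2 ratios of -1.26 (-1.53 to -0.99) for IACS-70654 over vehicle and -1.53 (-1.77 to -1.30) for both drugs over anti-PD1. Arrdc4 was at 48.4, 55.2, 46.1 and 55.9 CPM in the same order, with ratios of 0.19 (-0.01 to 0.39) and 0.28 (0.11 to 0.45). Slc2a1 was at 51.9, 44.3, 55.6 and 43.3 CPM, with ratios of -0.23 (-0.43 to -0.03) and -0.36 (-0.53 to -0.19). Slc2a3 had 3 or 4 UMIs per library in tumor cells and is not compared. RNA of the 5 neutrophil genes in tumor cells summed to 212 CPM under vehicle, 122 CPM under IACS-70654, 158 CPM under anti-PD1 and 184 CPM under both drugs.

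Tumor macrophage-like cells had Txnip at 83.0 CPM under vehicle, 108 CPM under IACS-70654, 69.3 CPM under anti-PD1 and 102 CPM under both drugs, with log2 ratios of 0.38 (0.23 to 0.54) and 0.56 (0.37 to 0.76), where 16.6% and 18.8% of genes differed by over 0.5. Fibroblast-like cells, 34 to 46 per library, had Txnip at 53.4, 127, 74.8 and 117 CPM, with ratios of 1.25 (0.53 to 1.99) and 0.65 (-0.07 to 1.39), where 42.3% and 45.8% of genes differed by that much. Their Slc2a1 was at 57.3, 30.3, 144 and 25.5 CPM, with ratios of -0.92 (-2.07 to 0.13) and -2.50 (-3.64 to -1.51). RNA of the 5 neutrophil genes summed, in the same order of libraries, to 344, 99.2, 216 and 166 CPM in fibroblast-like cells. In macrophage-like cells it summed to 103, 55.9, 137 and 46.1 CPM. Its part was not tested.

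Tumor neutrophil-like cells had the highest Txnip of the 5 classes plotted, at 574 CPM under vehicle, 588 CPM under IACS-70654, 627 CPM under anti-PD1 and 767 CPM under both drugs. The ratio was 0.04 (-0.16 to 0.23) for IACS-70654 over vehicle, which includes 0, and 0.29 (0.12 to 0.46) for both drugs over anti-PD1. Their Slc2a3 was at 59.0, 20.5, 37.1 and 22.3 CPM, with ratios of -1.53 (-2.48 to -0.66) and -0.74 (-1.69 to 0.16). Slc2a1 was at 203, 164, 210 and 134 CPM, with ratios of -0.31 (-0.67 to 0.04) and -0.65 (-1.02 to -0.29). RNA of the 5 neutrophil genes in these cells was at 26725 CPM under vehicle, 15192 CPM under IACS-70654, 32428 CPM under anti-PD1 and 14398 CPM under both drugs, and its part was not tested. Here 38.2% of genes for IACS-70654 over vehicle and 38.7% for both drugs over anti-PD1 differed by over 0.5.

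Tumor T and NK-like cells went the other way for Txnip under both drugs. It was at 113 CPM under vehicle, 122 CPM under IACS-70654, 131 CPM under anti-PD1 and 89.6 CPM under both, with log2 ratios of 0.12 (-0.38 to 0.63) for IACS-70654 over vehicle and -0.55 (-1.03 to -0.07) for both drugs over anti-PD1. Their Slc2a3 had 5 to 15 UMIs per library, with ratios of -2.50 (-4.36 to -0.89) and -0.88 (-2.04 to 0.28). Of genes with 20 or more UMIs in a pair, 33.6% and 34.3% differed by over 0.5. With 5 and 12 UMIs under IACS-70654 and vehicle, Slc2a3 was not among those of the first pair. RNA of the 5 neutrophil genes in these cells was at 425, 142, 459 and 161 CPM in the order of vehicle, IACS-70654, anti-PD1 and both, and RNA of 4 B cell genes at 211, 85.6, 76.8 and 44.8 CPM, and their part was not tested. Tumor monocyte-like cells had Txnip at 88.1, 96.8, 69.3 and 87.2 CPM, with ratios of 0.14 (-0.29 to 0.59) and 0.33 (-0.10 to 0.79). Arrdc4 in these cells was at 44.0, 71.6, 48.1 and 54.7 CPM, with ratios of 0.70 (0.11 to 1.35) and 0.19 (-0.34 to 0.75), where 32.9% and 31.2% of genes differed by that much.

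**Figure D5:**
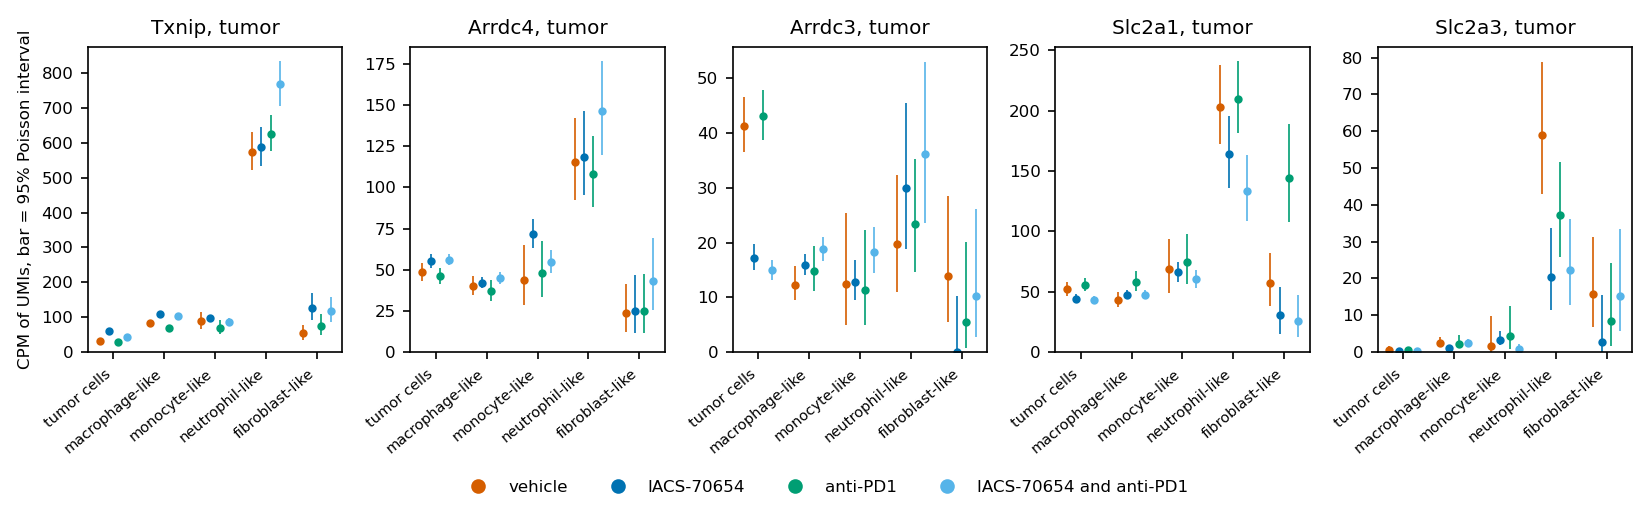
CPM of the 5 members in 5 classes of the 4 tumor libraries, each on its own linear axis from 0, with exact 95% Poisson intervals. Each point is 1 library, so no bar shows spread between mice. In tumor cells Txnip sits at 61.2 and 42.2 CPM in the libraries with IACS-70654 and at 32.5 and 27.9 CPM in those without, and Arrdc3 at 17.2 and 14.9 against 41.3 and 43.1 CPM.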

How the data were processed

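Cells of tumors, CD45+ Ter119- BM and Lin- c-Kit+ BM were tagged with CellPlex oligos and sequenced as 3′ single-cell libraries. The authors aligned the reads, counted UMIs and assigned cells with CellRanger (7.1.0 for tumors and 7.2.0 for BM per the file headers, mm10 per the submitters' processing notes), and the deposited values are raw counts of UMIs per gene and cell. A transgene row, neoR, held 0 UMIs. Library totals were 15590289 to 43594797 UMIs for tumors, 27816638 to 54510172 for CD45+ BM and 27427163 to 68415534 for Lin- c-Kit+ BM. The genes, lists and tests were chosen with earlier results of these data known.

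Cells with over 200 and under 6000 genes and at most 10% mitochondrial UMIs were used. The authors word the first limits as read counts and add a limit of 1000 UMIs that was not applied, which 0.749% to 3.4% of the cells of a sort did not exceed, including 19.6% of tumor neutrophil-like and 29.8% of eosinophil progenitor-like cells. Each sort was normalized, reduced to 2000 variable genes and 30 components, joined by 20 neighbors and clustered (Leiden resolution 1, scanpy 1.11.5, seed 1), without integration of libraries. A cluster took the name of the marker list with the highest score when that was at least 0.6 and at least 3 markers were detected. Names were rebuilt and may differ from the authors'. Scrublet called under 0.5% of cells doublets, so they stayed in, and an alternative left out the 5% of cells with the highest scores. Counts were summed per class and library with at least 20 cells. Genes passing filterByExpr were tested with edgeR 4.0.16 (TMM, quasi-likelihood test, all 6 libraries of a sort in 1 fit, Benjamini-Hochberg over all genes of a class). An exact permutation test of 2 against 2 libraries cannot go below p = 0.333 and was not used. Tests were tried on simulated data first. Cells in cycle were those with at least 2 UMIs of 12 genes of S and G2/M phase after thinning.

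Alternatives were DESeq2 1.42.0, RLE scaling, library totals, no count filter, a wider cell filter (up to 20% mitochondrial UMIs), resolution 2, doublets left out, only the groups compared, a replicate block, and each library left out. Library totals and the doublet score were added after seeing the data. Values within clusters were added after seeing the data and carry no test. The text names the members in the BM classes tested and in 6 tumor classes (dendritic cell-like, endothelial-like and B cell-like cells had too few cells in some libraries), up to 4 called genes by size of each list and comparison (alpha-arrestins, glucose-sensing factors, hexose transporters, hexokinases, thioredoxin system, NEDD4-type ligases, FOXO, hypoxia, handling, RNA of other cells), and the 3 genes most like each member among those of at least 20 CPM on average, by log2(CPM + 1). Intervals cover counting error only, and a count of 0 allows up to 3 counts. Same-numbered replicates did not deviate together (correlations of -0.075 to 0.077), so numbers were not taken as pairs.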

Additional observations from a re-analysis of the deposited data

Results flagged for a closer look

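The change from vehicle to IACS-70654 differed between classes of the same 6 libraries for 4 of the tested members and pairs of classes, each by an interaction term in edgeR's quasi-likelihood test. In GMP-like cells Txnip changed by 0.75 ± 0.12 (SE) more on the log2 scale than in erythroid progenitor-like cells (edgeR adjusted p = 4.1e-07), and 9.28% of all genes differed between these classes at an adjusted p under 0.01, the limit used here without one on size. DESeq2 gave 0.77 with an adjusted p of 0.014, past the limit. Slc2a3 differed between the same classes by 0.59 ± 0.17 (edgeR adjusted p = 7.3e-03). This was lost in DESeq2 and without either vehicle or either IACS-70654 library. RNA of the 5 neutrophil genes summed to 5163 to 5900 CPM in GMP-like cells under IACS-70654 and 1216 to 1468 CPM under vehicle. In erythroid progenitor-like cells the sums were 112 to 138 CPM and 36.9 to 172 CPM. The part of this RNA in both differences was not tested.

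In mature neutrophil-like cells Txnip changed by -0.72 ± 0.07 relative to monocyte-like cells (edgeR adjusted p = 1.7e-11), and 14.3% of all genes differed. With library totals the difference was -0.46 (edgeR adjusted p = 1.0e-06). Slc2a1 differed by -0.92 ± 0.19 between these classes (edgeR adjusted p = 1.7e-04), by -0.66 with library totals, and was not called without vehicle replicate 1 (-0.71) or IACS-70654 replicate 2 (-0.81). Between mature neutrophil-like and B cell-like cells, over 5 libraries, Slc2a3 differed by -1.08 ± 0.35 (edgeR adjusted p = 0.041) and was not called, where 2.67% of all genes were. With 2 libraries per group no library could be tested as standing apart from its group.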

How the results depend on the processing

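Txnip under IACS-70654 in HSC-like and MPP-like cells, the values that chose the members and so no support for them, differed from vehicle by 1.29 and 1.13 on the log2 scale as reported, 1.61 and 1.23 with the wider cell filter, and 1.25 for MPP-like cells at resolution 2. Leaving out libraries gave 1.17 to 1.53, 1.09 to 1.18 and, in GMP-like cells, 0.53 to 0.76. In mature neutrophil-like cells the change of -0.22 (-0.25 to -0.20 with libraries left out) became 0.00096 with library totals, and in precursor-like cells -0.05 became 0.25 with library totals and 0.016 at resolution 2. The cause was not tested. Called pairs between IACS-70654 and vehicle in Lin- c-Kit+ BM went from 10 to 5 with DESeq2 and to 6 to 9 with libraries left out. For vehicle against WT 1 pair became 2 with the wider filter, 3 at resolution 2 and 2 without the highest doublet scores. In CD45+ BM 5 pairs became 3 with library totals and 8 without the count filter (4 to 7 with libraries left out), 3 pairs for vehicle against WT became 5 with library totals, at resolution 2 and without the highest doublet scores (3 to 4), and 3 for IACS-70654 against WT became 5 at resolution 2 (2 to 4). The 4 differences between classes became 2 with DESeq2 and 2 to 4 with libraries left out. Txnip in tumor cells, 0.91, was 1.51 when cells were thinned to 2000 UMIs, on 19 and 113 UMIs. The replicate block gave 9 called pairs in place of 10 in Lin- c-Kit+ BM, 1.30 for Txnip in HSC-like cells, and lost 7 single calls, of the members only Arrdc4 in megakaryocyte progenitor-like cells (1.55). Of 3333 values for 211 results, each of 1 gene in 1 class and comparison, 2912 kept direction and side of the threshold, 413 lost a call, 6 gained one and 2 changed sign.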
